A study of Equus caballus with 8 samples.

Results

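The genes described are 10 that are known from other tissues or species to respond to progesterone, to glucocorticoid or to the forkhead transcription factor FOXO1, namely FKBP5, ZBTB16, KLF9, FOXO1, TSC22D3, SESN3, MAOA, GPX3, DPP4 and ANXA4. They were chosen by name from that knowledge, except that SESN3 was picked for its lower level in pregnancy in these same libraries. All 10 matched a Gene ID in the count table of 24942 genes, and all 10 were among the 15342 genes that passed the filter on low counts. Messenger RNA had been sequenced from transcervical biopsies of whole endometrium of 4 cycling Bavarian Warmblood mares. The 2 groups were the pregnant state on Day 12 (4 libraries) and the oestrous cycle on Day 12 (4 libraries), and each of the 4 mares gave 1 biopsy in each state, in random order. Per the labels, human chorionic gonadotropin (1500 IU) was given to induce ovulation, mares were inseminated with sperm of a single stallion, pregnancy was seen by ultrasound as a vesicle in the uterus, and the uterus was flushed before the biopsy. The same protocol text stands on the labels of both groups, although a vesicle can apply to the pregnant state only. The labels alone therefore do not show whether the treatment before a cyclic biopsy differed from that before a pregnant one. The age of the mares is not given in the sources used here.

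Progesterone from the corpus luteum acts through the progesterone receptor, a nuclear receptor that is held ready for hormone by the HSP90 chaperone and its helper proteins. The glucocorticoid receptor is built alike and binds closely related DNA elements, so a number of genes answer to both hormones. FOXO1 enters the nucleus when signalling through the kinase AKT is low, and in human endometrial stromal cells it works together with the progesterone receptor during decidualisation. The mare forms no decidua, and on Day 12 the mobile conceptus is not attached to the endometrium.

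Total counts were 9.81 to 16.7 M per pregnant library and 15.5 to 16.5 M per cyclic library, the shallowest being the pregnant library of mare 1. No member had fewer than 158 counts in any library. Levels are given as CPM, counts scaled to a common library size, with the library sizes corrected by TMM, the trimmed mean of M values. They were not divided by transcript length, so they compare libraries for a gene and not genes with each other. A gene is said to have risen or fallen where the edgeR quasi-likelihood test with the mare as block gave an adjusted p below 0.05 over all genes tested. The mares are separate animals, but each state was sampled once per mare. In a biopsy, a change in the number of cells of a type and a change in RNA per cell cannot be told apart. The tissue label was checked against markers. All 10 epithelial markers and all 9 stromal markers that matched a Gene ID were tested, with summed levels of 1606 to 1773 CPM in the pregnant libraries and 1748 to 2104 CPM in the cyclic libraries for epithelium, and of 4078 to 4643 CPM in the pregnant libraries and 3273 to 4840 CPM in the cyclic libraries for stroma. Of 6 genes listed for trophoblast that matched a Gene ID, HAND1 and CDX2 had 0 counts in all 8 libraries, and the other 4 passed the filter. The sum of the 6 was 6.45 to 13.2 CPM in the pregnant libraries and 5.39 to 8.76 CPM in the cyclic libraries. It includes PAG1, with 9 to 39 counts per library. That symbol probably stands here for a signalling adaptor and not for a pregnancy-associated glycoprotein, so PAG1 is no sure marker of trophoblast.

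FOXO1 was the member that rose among the 9 not picked on these values, by 1.35-fold. The other 8 did not pass the test, and 0 fell. Of all genes tested 8.53% rose and 8.19% fell, so 1 riser among 9 is near the share in the whole table. KLF9 was also higher in 4 of 4 mares and MAOA lower in 4 of 4, but neither passed. The median log2 fold change of the 9 genes was 0.09, against 0.00 for all genes tested. SESN3, the gene chosen for its difference, stood at 14.6 ± 4.75 CPM in pregnant endometrium and 39.5 ± 11.6 CPM in cyclic endometrium (SD, n = 4 each).

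**Figure D1:**
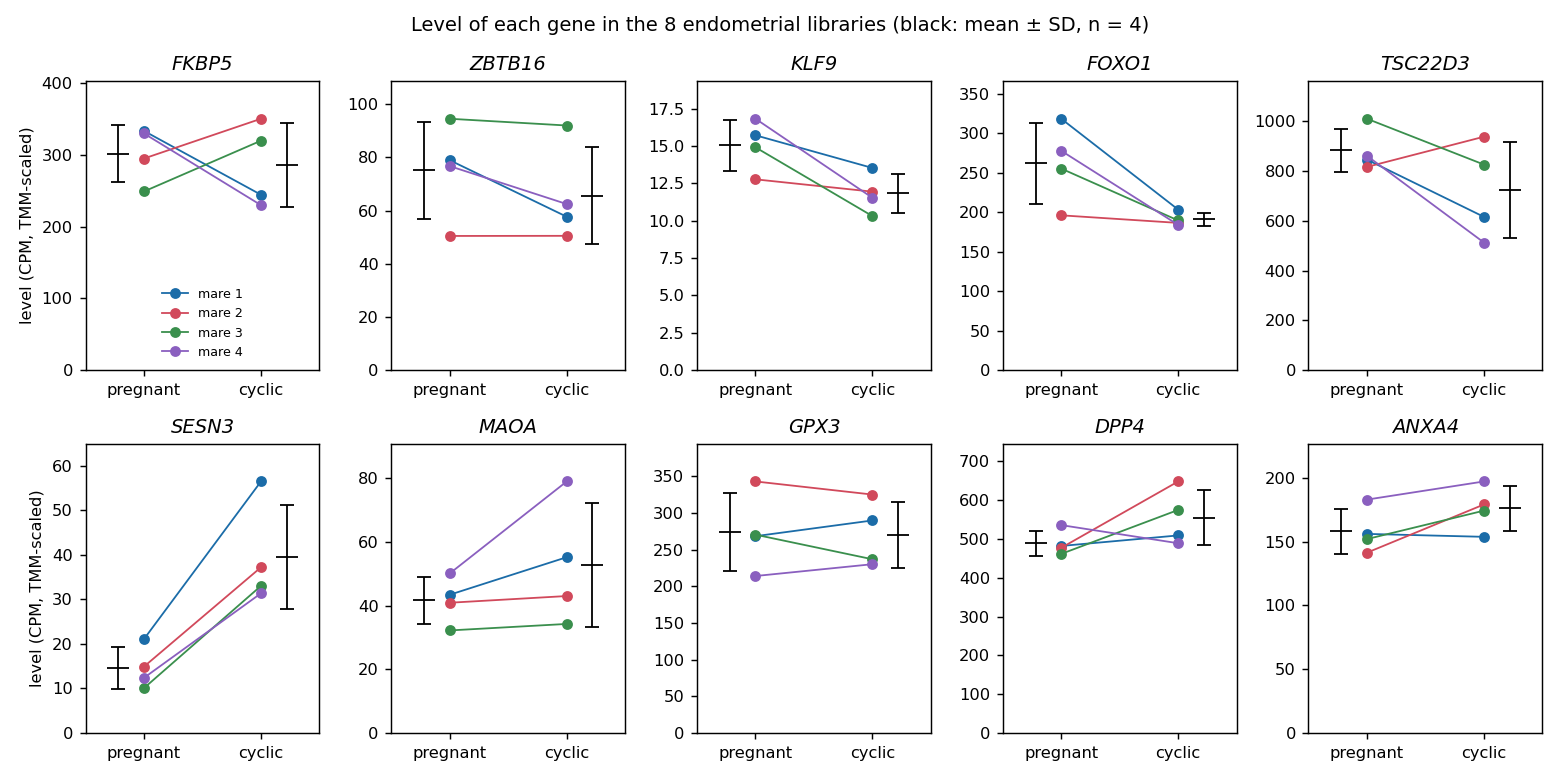
Level of each of the 10 genes in CPM on the y axis, in the pregnant and the cyclic biopsy of each mare (joined coloured points), with the mean ± SD of 4 mares in black beside each group. The 4 pregnant values of SESN3, 10.1 to 21.1 CPM, all lie below the 4 cyclic values, 31.4 to 56.5 CPM, while the groups overlap for each of the other 9 genes.

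Among the transcription factors, FOXO1 (Gene ID 100050481) had 319, 196, 255 and 278 CPM in the pregnant biopsies of mares 1 to 4, against 203, 187, 190 and 184 CPM in their cyclic biopsies. The cyclic values lay close together, with a highest over lowest ratio of 1.10, and the pregnant values spread more widely, with a ratio of 1.62. The pregnant value of mare 2 was below the cyclic value of mare 1, so the groups overlap in that library only. The log2 fold change of FOXO1 was 0.44 ± 0.10 (SE; adjusted p = 0.0171 by edgeR), higher in 4 of 4 mares. The call was lost without mare 1, mare 3 or mare 4 (adjusted p = 0.103, 0.0571 and 0.0646 by edgeR) and without the mare block (adjusted p = 0.111), and the log2 fold change of FOXO1 stayed between 0.37 and 0.55 over 12 alternatives.

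KLF9 (100050300), a zinc finger factor that binds GC-rich elements and assists the progesterone receptor in uterine cells, had 15.7, 12.8, 14.9 and 16.8 CPM in the pregnant biopsies of mares 1 to 4, against 13.5, 11.9, 10.3 and 11.5 CPM in the cyclic biopsies. The lowest pregnant value, that of mare 2, was under the highest cyclic value, that of mare 1. The log2 fold change of KLF9 was 0.35 ± 0.11 (SE; adjusted p = 0.0648), and it passed in 0 of 12 alternatives (lowest adjusted p = 0.0610 by edgeR). KLF9 and FOXO1 moved in the same direction in 4 of 4 mares, and mare 2 had the smallest ratio for both. ZBTB16 (100062269), also called PLZF, is a transcriptional repressor that progestins and glucocorticoids induce in human endometrial stromal cells. It had 78.9, 50.5, 94.5 and 76.7 CPM in pregnancy, against 57.7, 50.5, 92.0 and 62.5 CPM in the cycle. Mares 2 and 3 had nearly the same level in both states, at the bottom and at the top of the range, while mares 1 and 4 were higher in pregnancy. Its log2 fold change was 0.20 ± 0.09 (SE; adjusted p = 0.158 by edgeR).

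FKBP5 and TSC22D3 are textbook targets of both the glucocorticoid and the progesterone receptor. FKBP5 (100053546), an HSP90 co-chaperone that lowers the hormone affinity of steroid receptors, had 333, 295, 249 and 329.5 CPM in the pregnant biopsies of mares 1 to 4, against 244, 350.1, 319.5 and 229.8 CPM in the cyclic biopsies. Mares 1 and 4 were higher in pregnancy and mares 2 and 3 lower, so no common direction was seen. The log2 fold change of FKBP5 was 0.09 ± 0.17 (SE; adjusted p = 0.772 by edgeR), the largest standard error among the 9 genes tested. In the gene table of a thoroughbred assembly the span of FKBP5 overlaps that of ARMC12, which had 1236 to 4101 counts per library. ZBTB16 overlaps a long noncoding RNA gene with 3 to 18 counts, and TSC22D3 and SESN3 each overlap 1 that is absent from the count table. Only whole gene spans were compared. Whether exons overlap, where reads without a strand could not be assigned, was not examined.

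TSC22D3 (100054678), the leucine zipper protein GILZ, through which glucocorticoids dampen inflammatory signalling, had 846, 817, 1010 and 861 CPM in pregnancy, against 616, 938, 826 and 513 CPM in the cycle. The pregnant values were closer together than the cyclic values, with highest over lowest ratios of 1.24 in pregnancy and 1.83 in the cycle. TSC22D3 was higher in pregnancy in 3 of 4 mares and lower in mare 2. Its log2 fold change was 0.32 ± 0.14 (SE; adjusted p = 0.165 by edgeR). Without mare 2 it was 0.49 (adjusted p = 0.0205 by edgeR), which was the 1 of 12 alternatives in which TSC22D3 passed. FKBP5 and TSC22D3 shared their direction in 3 of 4 mares, both being higher in mares 1 and 4 and lower in mare 2.

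SESN3 (100061072), a sestrin that activates AMP-activated kinase, restrains the growth regulator mTORC1 and is a FOXO target in mouse and human cells, had 21.1, 14.9, 10.1 and 12.4 CPM in the pregnant biopsies of mares 1 to 4. In their cyclic biopsies it had 56.5, 37.2, 33.0 and 31.4 CPM. The groups did not overlap, and mare 1 was the highest of its group in both states. The log2 fold change of SESN3 was -1.45, and the ratios within a mare ran from -1.71 in mare 3 to -1.32 in mare 2. Over 12 alternatives the log2 fold change was -1.50 to -1.37. These values chose the gene, so no test is given for them. Of all genes tested, 0.215% had a lower log2 fold change and 4.73% had pregnant values entirely below the cyclic ones.

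**Figure D2:**
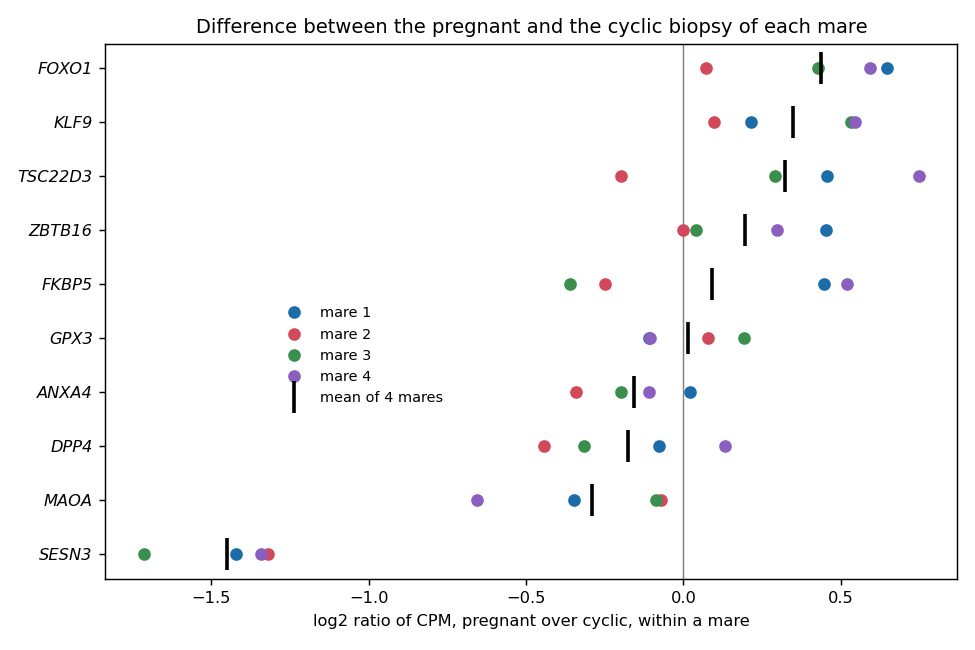
Log2 ratio of the pregnant over the cyclic CPM within each mare (coloured points, 1 for each mare) and the mean of 4 mares (black bar) for the 10 genes, ordered by fold change. The 4 ratios of SESN3 lie between -1.71 and -1.32, and those of FKBP5 lie on both sides of 0.

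The remaining 4 genes encode enzymes and a membrane-binding protein that rise in the secretory phase of the human endometrium. MAOA (100033867), the mitochondrial oxidase that breaks down serotonin and noradrenaline, had 43.4, 40.9, 32.2 and 50.1 CPM in pregnancy, against 55.3, 43.0, 34.3 and 79.1 CPM in the cycle. It was lower in pregnancy in 4 of 4 mares, with ratios near 0 in mares 2 and 3, and its log2 fold change was -0.30 ± 0.10 (SE; adjusted p = 0.0823 by edgeR). MAOA passed in 0 of 12 alternatives, where its adjusted p was 0.0622 to 0.522. GPX3 (100033835), a secreted selenium-containing glutathione peroxidase, had 268, 343, 270.5 and 214 CPM in pregnancy, against 289.9, 325, 237 and 230.2 CPM in the cycle. It was higher in mares 2 and 3 and lower in mares 1 and 4, and its log2 fold change of 0.01 ± 0.08 (SE; adjusted p = 0.935 by edgeR) had the smallest size of the 10.

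DPP4 (100061124), a serine peptidase on the surface of glandular cells that trims peptide hormones and chemokines, had 482, 477, 462 and 536 CPM in pregnancy, against 509, 648, 575 and 489 CPM in the cycle. It was lower in pregnancy in mares 1 to 3 and higher in mare 4. Its log2 fold change was -0.18 ± 0.10 (SE; adjusted p = 0.281 by edgeR). ANXA4 (100050657), an annexin that binds membranes in the presence of calcium, had 156, 141, 152 and 183 CPM in pregnancy, against 154, 179, 174 and 197 CPM in the cycle. It was lower in 3 of 4 mares and its log2 fold change was -0.16 ± 0.08 (SE; adjusted p = 0.204 by edgeR). For none of these 4 genes did the 2 groups separate, against 10.7% of all genes tested whose groups did not overlap in either direction.

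The 9 members other than SESN3 were not chosen on these values, so differences between mares can be tested for them. With the 3 mare terms tested together, 3 of the 9 genes differed between mares (edgeR adjusted p below 0.05), against 15.9% of all genes tested. They were ZBTB16 (adjusted p = 0.00894), MAOA (adjusted p = 0.0135) and GPX3 (adjusted p = 0.0316), all by edgeR. ZBTB16 was highest in mare 3 and lowest in mare 2 in both states, with highest over lowest ratios of 1.87 in pregnancy and 1.82 in the cycle. MAOA was highest in mare 4 and lowest in mare 3 in both states, and GPX3 highest in mare 2 and lowest in mare 4. Without mare 3 the adjusted p was 0.0653 for ZBTB16 and 0.0601 for MAOA by edgeR, and GPX3 passed in 6 of 10 alternatives, its adjusted p reaching 0.174. The call of GPX3 was lost without mare 1, mare 2 or mare 4 (adjusted p = 0.0537, 0.174 and 0.106 by edgeR) and with library totals in place of scaling factors (adjusted p = 0.0730). FKBP5 had an adjusted p of 0.846 in this test and DPP4 one of 0.765.

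The variation of log2 CPM over the 8 libraries, taken as a sum of squares, was divided between mare, state and remainder. The mare took 91.8% of it in GPX3, 84.2% in ZBTB16 and 76.1% in MAOA, against a median of 54.8% over all genes tested. The state took 58.2% in FOXO1 and 59.5% in KLF9, against a median of 16.0%. FKBP5 had 80.7% in the remainder, outside both terms.

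**Figure D3:**
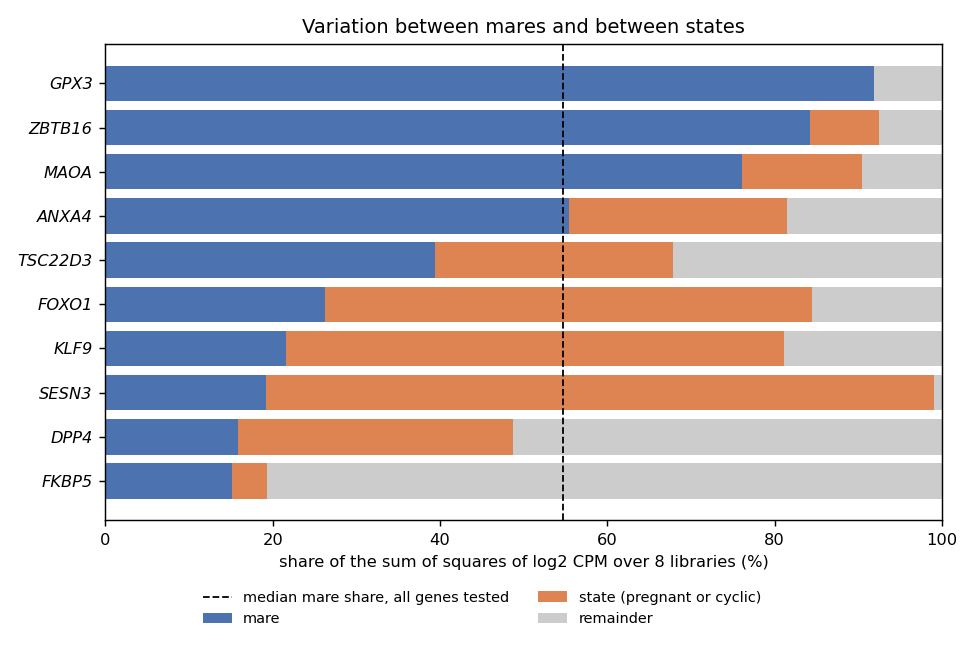
Share of the variation (sum of squares) in log2 CPM over the 8 libraries, in percent, that goes with the mare, with the state and with the remainder, for each of the 10 genes; the dashed line is the median mare share of all genes tested, 54.8%. The mare share runs from 15.2% in FKBP5 to 91.8% in GPX3.

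Over the 8 libraries, the genes with the pattern of log2 CPM most like that of FKBP5 were SMOX, ZNF696 and HERPUD1, with Pearson's r of 0.96, 0.94 and 0.92 among 12725 other named genes with a mean of at least 1 CPM. SMOX, which encodes spermine oxidase, had 61.9, 51.3, 43.6 and 62.7 CPM in the pregnant biopsies of mares 1 to 4, against 48.0, 61.1, 56.9 and 42.6 CPM in the cyclic ones, so it too was higher in mares 1 and 4 and lower in mares 2 and 3. For SESN3 the nearest were HHIP, PDS5A and PBRM1, with r of 0.997, 0.981 and 0.980. HHIP, the hedgehog-interacting protein, had 4.28, 3.48, 2.70 and 3.08 CPM in pregnancy, against 8.50, 6.47, 6.46 and 6.01 CPM in the cycle, again without overlap and with mare 1 highest in both states. These genes were picked from many for their likeness and the 8 libraries come from 4 mares, so the values of r are a description.

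Neither of the main receptors that act on these genes passed the test. PGR, the progesterone receptor, had 28.1 ± 6.66 CPM in pregnancy and 36.0 ± 7.63 CPM in the cycle (SD, n = 4 each; log2 fold change -0.36 ± 0.18 SE, adjusted p = 0.234 by edgeR), and NR3C1, the glucocorticoid receptor, had 35.0 ± 5.67 CPM in pregnancy and 41.3 ± 4.33 CPM in the cycle (-0.24 ± 0.08 SE). NR3C1 was lower in 4 of 4 mares and did not pass (adjusted p = 0.0756 by edgeR). Of 9 receptor genes tested, 1 rose and 1 fell. PAQR5, a membrane progesterone receptor, rose to 2.97 ± 1.85 CPM in pregnancy, against 0.598 ± 0.242 CPM in the cycle (adjusted p = 0.0155 by edgeR). The cyclic counts of PAQR5 were few, at 12, 10, 12 and 4 in mares 1 to 4, against 51, 23, 24 and 67 in pregnancy. They lie near or under the minimum count of 10 of the filter, which PAQR5 would not have passed on the cyclic libraries alone. The call of PAQR5 was lost without the mare block and without mare 1 (adjusted p = 0.0550 and 0.0986 by edgeR).

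Of 15 chaperone and cofactor genes tested, 1 rose and 2 fell. FKBP4, the co-chaperone that competes with FKBP5 for HSP90 and favours receptor activity, fell to 303 ± 42.4 CPM in pregnancy, against 379 ± 50.4 CPM in the cycle (log2 fold change -0.32 ± 0.08 SE; adjusted p = 0.0233 by edgeR). HSP90AB1, the constitutive cytosolic HSP90, had 656 ± 79.1 CPM in pregnancy and 679 ± 122 CPM in the cycle (log2 fold change -0.04 ± 0.09 SE; adjusted p = 0.814 by edgeR). The coactivator NCOA2 fell (log2 fold change -0.39 ± 0.06 SE). The call of FKBP4 held in 8 of 12 alternatives. It was lost without the mare block (adjusted p = 0.234 by edgeR), without mare 1 (0.0825), without mare 4 and with library totals. NCOA2 held in 11 of 12 and was lost without the mare block (adjusted p = 0.0951 by edgeR).

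Of 23 progesterone response genes tested besides the members, 6 rose and 1 fell, with a median log2 fold change of -0.05. Smallest in p were IHH, the hedgehog ligand of the uterine epithelium, which fell (-0.95 ± 0.10 SE), STC1, a glycoprotein hormone, which rose (1.55 ± 0.15 SE), and NR2F2, a stromal nuclear receptor downstream of hedgehog signalling in the mouse uterus, which rose to 73.3 ± 3.74 CPM in pregnancy, against 53.6 ± 8.66 CPM in the cycle. The other risers, named after their values were seen, were the cell surface mucin MUC1 (log2 fold change 0.66 ± 0.14 SE) and the transcription factors HAND2 (0.47 ± 0.14 SE), HOXA11 (0.42 ± 0.11 SE) and HOXA10 (0.41 ± 0.11 SE), which mediate progesterone action in the mouse uterus. The call of MUC1 was lost without mare 4 and without the mare block (adjusted p = 0.271 without the block, by edgeR), and that of STC1 without the mare block (0.0758). The call of NR2F2 was lost without mare 1 (adjusted p = 0.0715 by edgeR), as were those of HAND2, HOXA11 and HOXA10 (0.178, 0.118 and 0.140). Over 12 alternatives NR2F2 and HOXA11 were each called in 9. HAND2 and HOXA10 were each called in 6, and both were lost by DESeq2 as well. Of the 23, 0 rose without the mare block, and 2, 3 and 3 rose without mares 1, 2 and 4. Of 9 stromal markers 5 rose, and their part in these rises was not tested.

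Of 18 glucocorticoid response genes tested, 3 rose and 0 fell, with a median log2 fold change of 0.32. They were IRS2, an insulin receptor substrate that is also a FOXO target (0.77 ± 0.08 SE), CRISPLD2, a secreted protein (0.57 ± 0.09 SE), and RGS2, a brake on G protein signalling (0.91 ± 0.18 SE). CRISPLD2 had 593 ± 43.4 CPM in pregnancy and 402 ± 59.7 CPM in the cycle, without overlap of the groups, and passed in 12 of 12 alternatives. RGS2 was lost without mare 1 (adjusted p = 0.0702 by edgeR), and IRS2 without the mare block (adjusted p = 0.240). Of the 18 genes, 7 rose without mare 3 and 5 rose by DESeq2, while 2 rose without the mare block, 2 without mare 1 and 2 without mare 2.

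Of 22 FOXO target genes tested besides the members, 6 rose and 1 fell, with a median log2 fold change of 0.20. IGFBP1, an insulin-like growth factor binding protein, TNFSF10, the death ligand TRAIL, and IRS2 were smallest in p. IGFBP1 had 0.967 to 10.7 CPM in the pregnant libraries and only 4, 0, 2 and 1 counts in the cyclic libraries of mares 1 to 4. Its log2 fold change of 5.43 ± 0.42 (SE) is therefore a ratio over values near 0. IGFBP1 passed the filter on low counts only through the pregnant libraries, where it is high. Its place among the risers and in the order of p depends on that. TNFSF10 rose to 104 ± 15.99 CPM in pregnancy, against 52.6 ± 12.0 CPM in the cycle (log2 fold change 1.00 ± 0.08 SE; adjusted p = 2.21e-04 by edgeR), and passed in 12 of 12 alternatives. Named after their values were seen, the other risers were PDK4, which restrains glucose oxidation (log2 fold change 0.78 ± 0.08 SE), BCL6, a transcriptional repressor (0.81 ± 0.09 SE), and CITED2, a transcriptional coregulator (0.56 ± 0.09 SE), and the faller was RICTOR, a subunit of mTORC2 (-0.44 ± 0.09 SE). Without the mare block 3 of the 22 rose and 0 fell, and the call of RICTOR was lost there (adjusted p = 0.444 by edgeR) and without mare 1 (0.0615). SESN1, the sestrin that is likewise a FOXO target, had 41.5 ± 7.71 CPM in pregnancy and 34.6 ± 5.17 CPM in the cycle (log2 fold change 0.26 ± 0.10 SE; adjusted p = 0.119 by edgeR), and SESN2 had 80.9 ± 13.9 CPM in pregnancy and 70.6 ± 8.79 CPM in the cycle (log2 fold change 0.19 ± 0.13 SE; adjusted p = 0.376 by edgeR). The means of both other sestrins were therefore higher in pregnancy, and SESN1 was so in 3 of 4 mares and SESN2 in 2 of 4, whereas SESN3 was lower in 4 of 4. The difference between sestrins was not tested.

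Of 21 genes of the FOXO family and its PI3K and AKT regulators, 1 rose and 4 fell. FOXO3, the closest relative of FOXO1, fell to 89.4 ± 9.63 CPM in pregnancy, against 119 ± 14.0 CPM in the cycle (log2 fold change -0.41 ± 0.09 SE; adjusted p = 0.0121 by edgeR), and was lower in 4 of 4 mares, while FOXO1 was higher in 4 of 4. IRS1 and the mTORC1 subunit RPTOR fell as well (log2 fold changes -0.36 ± 0.07 and -0.28 ± 0.07 SE). Named after its values were seen, PHLPP1, which dephosphorylates AKT, rose (0.32 ± 0.09 SE). Without mare 1 the adjusted p by edgeR was 0.0639 for FOXO3, 0.0681 for RPTOR and 0.138 for PHLPP1, and 1, 2 and 2 of the 21 genes fell without mares 1, 2 and 4. Over 12 alternatives IRS1 was called in 11, FOXO3 in 10, RPTOR in 7 and PHLPP1 in 6. PHLPP1 was also lost by DESeq2 and by limma-voom. Without the mare block 0 of the 21 genes changed.

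Of 17 genes that work with sestrins in nutrient sensing, 2 rose and 2 fell. PRKAA2, a catalytic subunit of AMP-activated kinase, fell to 12.8 ± 7.15 CPM in pregnancy, against 32.7 ± 12.4 CPM in the cycle (log2 fold change -1.42 ± 0.12 SE; adjusted p = 2.21e-04 by edgeR). DEPDC5, a subunit of the GATOR1 complex that inhibits mTORC1, fell without overlap of the groups (-0.53 ± 0.09 SE). SQSTM1, an autophagy receptor, rose (0.30 ± 0.07 SE), and so did, named after its values were seen, NFE2L2, the regulator of the antioxidant response (0.42 ± 0.10 SE). The falls of PRKAA2 and DEPDC5 were called in 11 of 12 alternatives and lost without the mare block (adjusted p = 0.114 and 0.108 by edgeR), and the rise of SQSTM1 was lost without mare 1 (adjusted p = 0.111), without mare 3, without mare 4 and without the mare block. The call of NFE2L2 was lost without the mare block (adjusted p = 0.0866 by edgeR), without mare 2 and without mare 3 (0.0884).

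Among 29 close relatives of the members that were tested, 5 rose and 5 fell. The Krüppel-like factor KLF5 rose to 250 ± 32.8 CPM in pregnancy, against 152 ± 24.9 CPM in the cycle (log2 fold change 0.72 ± 0.07 SE) and passed in 12 of 12 alternatives. The annexin ANXA2 rose (0.44 ± 0.09 SE), and FAP, a peptidase related to DPP4, fell (-0.44 ± 0.08 SE). Without the mare block 1 of the 29 rose and 0 fell, and without mare 1 there was 1 riser and 1 faller, the call of ANXA2 being lost (adjusted p = 0.0642 by edgeR). Lists share genes, so FKBP4, FOXO3, SESN1 and SESN2 count among the relatives as well.

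**Figure D4:**
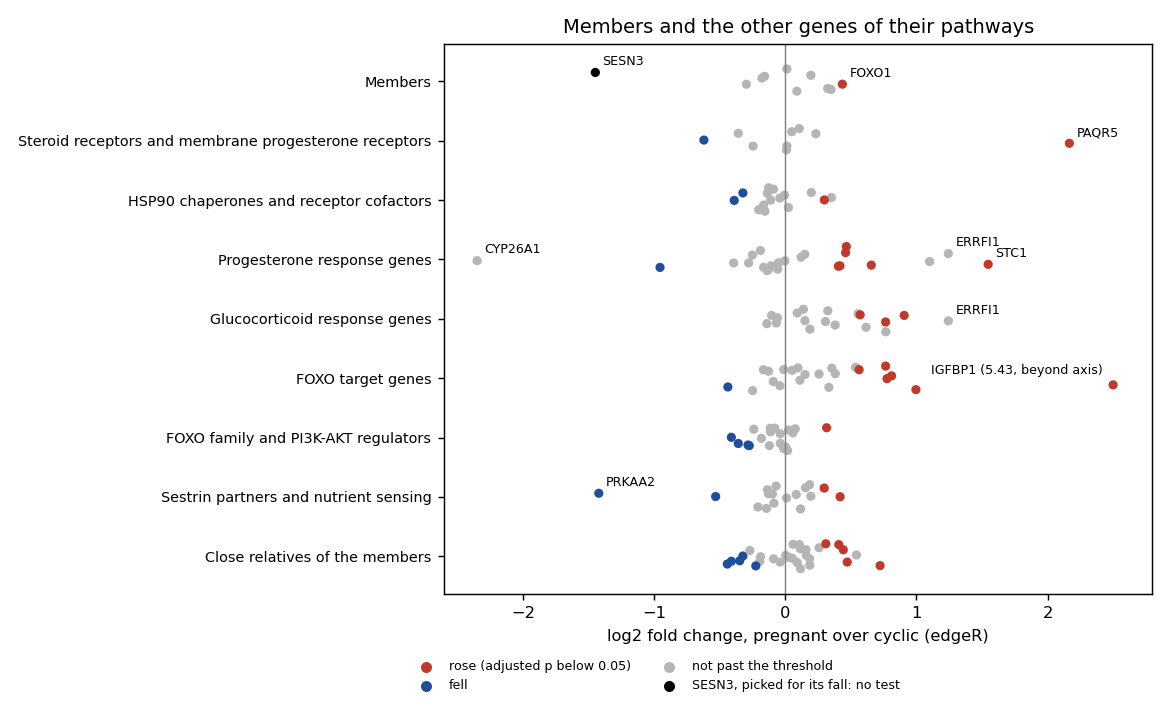
Log2 fold change, pregnant over cyclic, of the members and of the tested genes of each list (points, 1 for each gene), coloured by the edgeR call; SESN3 is drawn in black because it was picked for its difference. FOXO1 is the 1 member called, and most genes of every list did not pass.

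Markers of other cell types moved with the state. Of 10 endothelial markers 9 rose and 0 fell, with summed levels of 738 to 1242 CPM in the pregnant libraries and 417 to 581 CPM in the cyclic libraries. Of 8 smooth muscle markers 5 rose, with sums of 552 to 863 CPM in the pregnant libraries and 349 to 588 CPM in the cyclic libraries, and of 9 stromal markers 5 rose. The stromal sum was higher in pregnancy in mares 1 and 3 (log2 ratios 0.45 and 0.36) and lower in mares 2 and 4 (-0.23 and -0.25). Of 10 epithelial markers 0 rose and 3 fell, and the epithelial sum was lower in pregnancy in 4 of 4 mares, by 0.05 to 0.25 on the log2 scale. None of these markers was at 0. Of 8 T and NK cell markers 3 rose, of 8 macrophage and dendritic cell markers 1 and of 7 ciliated cell markers 1, and 0 of these fell. Of 4 genes listed for trophoblast that were tested, TFAP2C rose, with 2.79 ± 0.356 CPM in pregnancy and 1.37 ± 0.303 CPM in the cycle, and 0 fell. The log2 ratio of the trophoblast sum, which includes PAG1, was 0.11, -0.06, 0.48 and 1.29 in mares 1 to 4. For FOXO1 the ratio within a mare was 0.65, 0.07, 0.43 and 0.59 in mares 1 to 4 on the log2 scale, while that of the endothelial sum was 1.10, 0.82, 0.89 and 0.46. For SESN3 it was -1.42, -1.32, -1.71 and -1.34. The part of cell composition in the rise of FOXO1, in the SESN3 levels and in the calls of the lists was not tested.

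**Figure D5:**
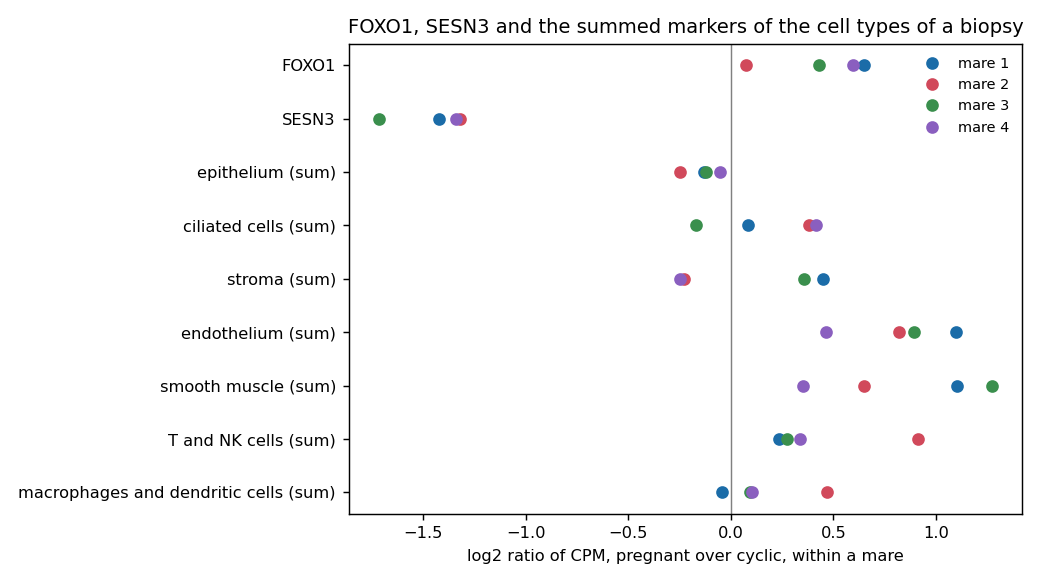
Log2 ratio of pregnant over cyclic CPM within each mare (coloured points) for FOXO1, SESN3 and the summed markers of 7 cell types. The endothelial sums are higher in pregnancy in 4 of 4 mares, with ratios of 0.46 to 1.10, and the epithelial sums lower, with ratios of -0.25 to -0.05.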

How the data were processed

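The authors deposited raw read counts per NCBI Gene ID, 1 column per library, and a second table of scaled signal values for 14037 genes. Per the submitters' processing notes, the tools included Trimmomatic 0.32.2 and HISAT2 2.0.3. Which build, annotation and counter were used is not given in the sources used here. Strand is not marked by the kit in the labels' protocols. Tested on the values, the authors' signal table holds TMM-scaled CPM (trimmed mean of M values) for genes over 2 CPM in at least 2 libraries, with 100% of values within a relative tolerance of 1e-06. It was used in 1 alternative. No per-sample column was left unused (0 columns).

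Symbols were read by Gene ID from the RefSeq genes of a thoroughbred assembly (21420 of 24942 IDs matched). Genes were filtered by filterByExpr (minimum count 10) and TMM-scaled, then tested in edgeR 4.0.16 (R 4.3.3) with the robust quasi-likelihood F-test and the mare as block, which the series' design text gives as the source of both biopsies. Deviations from group means correlated at 0.54, 0.38, 0.48 and 0.47 within mares 1 to 4 and at most -0.02 between mares, across genes. Since deviations in a group sum to 0, positive values within mares push those between mares below 0, so the latter are no separate evidence of pairing. The same fit tested the 3 mare terms. P-values were Benjamini-Hochberg adjusted over 15342 genes. The standard error is the log2 fold change divided by the square root of F. Sums of squares used log2 CPM with a prior count of 2. Alternatives used DESeq2 1.42.0 and limma 3.58.1 (voom, and limma-trend on log2(signal + 1) of the authors' table). The tests were also run on counts simulated from the same fitted model, with the spread of a gene set by its level only. Spread particular to a gene was left out, so no conclusion is drawn from that check.

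The members, lists and tests were chosen with earlier results of these data known. SESN3, picked for its fall within mares, gets no test of either kind. Genes named from lists are up to 3 called genes per list with the smallest p, 7 genes fixed whatever their result (PGR, NR3C1, HSP90AB1, FKBP4, FOXO3, SESN1 and SESN2), and others said to be named after their values were seen. Some called genes of the lists are counted but not reported here by name. The 3 genes most like FKBP5 and SESN3 were taken by Pearson's r. All replicates differed by more than counting noise (chi-square per degree of freedom of at least 24.6). A count of 0 allows up to 3 counts, or 0.298 CPM for mare 1 when pregnant and 0.169 to 0.193 CPM elsewhere, for counting error only; no member came near this.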

Additional observations from a re-analysis of the deposited data

How the results depend on the processing

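In 12 alternatives to the main setting, 0 of the 9 tested members fell in any. Without the mare as replicate block 0 members rose, and 268 genes rose and 121 fell in the whole table, against 1309 and 1256 with it. Leaving out 1 mare at a time gave 0 to 2 rising members (FOXO1 and TSC22D3 without mare 2), 653 to 1050 rising and 613 to 1007 falling genes, and between mares 1103 to 2049 genes and 1 to 2 of the 9 members that differed, against 2435 genes and 3 members with all. In each of these ranges the lowest count of genes is that without mare 1. Among the members, 4 sign changes were seen: the log2 fold change of FKBP5 ranged from -0.055 (without mare 4; -0.03 without mare 1) to 0.23, and that of GPX3 from -0.053 (without mare 3; -0.02 without mare 2) to 0.054. Library totals in place of TMM gave 1416 rising and 864 falling genes, which is 62.1% higher calls against 51.0%, and moved the median log2 fold change of all genes by 0.04. Of 38 called pathway genes, 7 passed without the mare block, 17 without mare 1 and 5 in all 12 alternatives, and none changed sign where tested; 1 more, IGFBP1, was not tested under the stricter filter and passed in the other 11. For the mare terms a DESeq2 likelihood ratio test stood in for the Wald test. The cause of these differences was not tested; the leave-one-out fits also hold fewer samples. The member with the fewest counts was KLF9, with 158 to 284 per library.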

Other observations

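ERRFI1, a feedback inhibitor of the epidermal growth factor receptor that was listed among both the progesterone and the glucocorticoid response genes, had 188 ± 57.0 CPM in pregnancy and 80.3 ± 26.7 CPM in the cycle (SD, n = 4 each). It was not called (log2 fold change 1.24 ± 0.33 SE; adjusted p = 0.0979 by edgeR), and it was named after its values were seen.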
